A study of Mus musculus with 6 samples.

Results

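The tripartite motif (TRIM) family of ubiquitin ligases was examined in C3H/HeJ mouse skin, with mice that had alopecia areata set against unaffected mice of the same strain. Members were all genes whose single symbol in the array's annotation table is Trim followed by a number, with a letter suffix allowed. This gave 58 genes, measured by 111 probe sets, of 18193 genes in all. Where a gene had several, its brightest probe set by the mean of the 6 arrays stood for it. Alopecia areata is an autoimmune hair loss that arises spontaneously in ageing C3H/HeJ mice, an inbred strain that also carries a loss-of-function allele of Tlr4. The alopecic group held affected skin of 3 mice and the unaffected group skin of 3 other mice, with 1 array of total RNA per mouse. The sources used here name no treatment or engineered allele and give neither age nor body site. Values are log2 RMA signals, so a difference of 1 is a doubling. The epidermal keratins Krt5 and Krt14 lay between 13.40 and 14.28 on the 6 arrays. Of the 8 measured keratinocyte markers 2, Krt5 and Krt14, had all alopecic arrays above and 1, Krt15, had them below (differences of 0.40, 0.48 and -0.86), with 0 past the threshold and a median of -0.14. Over all genes 6.93% had all alopecic arrays above and 6.12% had them below.

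TRIM proteins carry, from the N terminus, a RING finger that binds a ubiquitin-conjugating enzyme, B-box zinc fingers and a coiled coil that pairs the chains. The C-terminal domain differs between members and selects the target. Most members end in a PRY-SPRY domain. Others end in a PHD finger with a bromodomain that reads chromatin or in NHL repeats that can bind RNA. Some carry a COS box, which binds microtubules. Several members act in innate immunity. Trim25 attaches ubiquitin to the RNA sensor RIG-I, Trim21 binds antibody that has entered the cytosol with a virus, and a number of TRIM genes are themselves induced by interferon. Interferons act on their target genes through factors that bind the interferon-stimulated response element, whose core is GAAA, any 2 bases and GAAA again.

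Trim21 and 3 genes of a cluster of neighbours on chromosome 7 were 4 of the 5 members with the widest differences, so the start regions of Trim21 and the cluster are shown. In order along the chromosome the measured members of the cluster are Trim6, Trim34a, Trim5, Trim12a, Trim12c, Trim30a and Trim30d. RefSeq (GRCm38.p6) held start windows for 47 of the 58 genes. The sequences shown come from this reference genome and were not read from the C3H/HeJ mice. Each runs 5′ to 3′ on the strand of the gene, from 100 bases before the start to 50 bases from it, and capitals mark matches to this core on either strand. Trim25, which has no match in its window, is shown for comparison.
Trim21, chr7:102565433-102565582, - strand: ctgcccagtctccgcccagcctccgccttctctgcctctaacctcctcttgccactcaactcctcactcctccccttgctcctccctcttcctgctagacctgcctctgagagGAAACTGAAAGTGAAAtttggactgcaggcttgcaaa
Trim34a, chr7:104244357-104244506, + strand: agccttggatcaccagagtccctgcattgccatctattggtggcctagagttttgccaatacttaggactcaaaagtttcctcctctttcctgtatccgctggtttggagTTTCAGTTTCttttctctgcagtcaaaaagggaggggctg
Trim5, chr7:104288057-104288206, - strand: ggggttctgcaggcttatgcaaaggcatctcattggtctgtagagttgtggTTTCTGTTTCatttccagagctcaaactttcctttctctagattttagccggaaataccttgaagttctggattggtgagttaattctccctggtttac
Trim12a, chr7:104315446-104315595, - strand: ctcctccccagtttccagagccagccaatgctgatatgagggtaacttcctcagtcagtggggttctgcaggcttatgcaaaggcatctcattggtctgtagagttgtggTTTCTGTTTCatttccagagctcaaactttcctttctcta
Trim12c, chr7:104353300-104353449, - strand: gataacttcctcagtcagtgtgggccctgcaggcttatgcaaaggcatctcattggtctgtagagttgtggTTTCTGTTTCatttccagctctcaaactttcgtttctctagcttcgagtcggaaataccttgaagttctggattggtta
Trim30a, chr7:104465144-104465293, - strand: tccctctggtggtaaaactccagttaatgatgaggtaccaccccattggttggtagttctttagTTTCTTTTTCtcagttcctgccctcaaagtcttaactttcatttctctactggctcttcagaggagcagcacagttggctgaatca
Trim30d, chr7:104507800-104507949, - strand: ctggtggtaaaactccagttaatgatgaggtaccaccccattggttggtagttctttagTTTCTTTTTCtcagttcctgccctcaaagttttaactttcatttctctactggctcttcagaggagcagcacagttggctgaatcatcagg
Trim25, chr11:88999303-88999452, + strand: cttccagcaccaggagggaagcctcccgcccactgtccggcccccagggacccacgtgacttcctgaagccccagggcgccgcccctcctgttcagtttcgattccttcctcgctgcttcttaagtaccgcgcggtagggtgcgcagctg

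In the full windows of 300 bases, from 250 before to 50 after a start, the core was found in 9 of the 47 TRIM genes (19.1%) and in 3.99% of all 27025 genes with a window. Of the 7 genes of the cluster 6 held it, all but Trim6. Among the TRIM genes with every alopecic array above every unaffected array, 8 had a window and 4 of these held the core. In Trim21 a pair of overlapping matches began at bases 14 and 20 of the transcript, and in Trim34a and Trim12a the match began at base 11. At the starts shown the match lay 29 bases before the start in Trim12c, 36 in Trim30a, 41 in Trim30d and 49 in Trim5. Another annotated start of Trim30a, in a different window, held a match from base 3 of its transcript. Outside the cluster and Trim21 the motif was found in Trim26, 160 and 154 bases before the start, and at 1 of the 5 annotated starts of Trim2. The windows of Trim5, Trim12a and Trim12c are near copies of each other, as are those of Trim30a and Trim30d. Trim6 and Trim34a were not compared. Those of Trim5 and Trim12a share an identical run of 241 bases, and those of Trim30a and Trim30d match at 93.9% of 294 aligned positions. A match is a description of the letters and not a test of binding.

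Across the family the change was narrow. Of the 58 members 1, Trim25, rose in alopecic skin and none fell, by limma with Benjamini-Hochberg adjustment over all 18193 genes at 0.05; over all genes 0.264% rose and 0.011% fell. At an unadjusted p under 0.05, 10 TRIM genes were higher and 2 lower, or 12 together (20.7%), against 4.8%, 2.35% and together 7.15% of all genes. In 10 TRIM genes (17.2%) every alopecic array lay above every unaffected array, against 6.93% of all genes, and in 3 (5.17%) every alopecic array lay below, against 6.12%. The 10 were Trim30a, Trim21, Trim25, Trim12c, Trim34a, Trim14, Trim56, Trim27, Trim11 and Trim69. A difference of at least 1 was seen in 6 members, or 10.3%, all of them higher in alopecic skin, against 2.68% of all genes higher and 1.1% lower by that much. The median difference over the 58 genes was 0.04 against -0.01 over all genes, and 37 of the 58 lay within 0.25 of 0. The mean of 24 members lay below the lowest array median of 6.11; differences between signals this low are compressed on arrays, and of these members 2 had all alopecic arrays above and 2 had them all below.

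**Figure D1:**
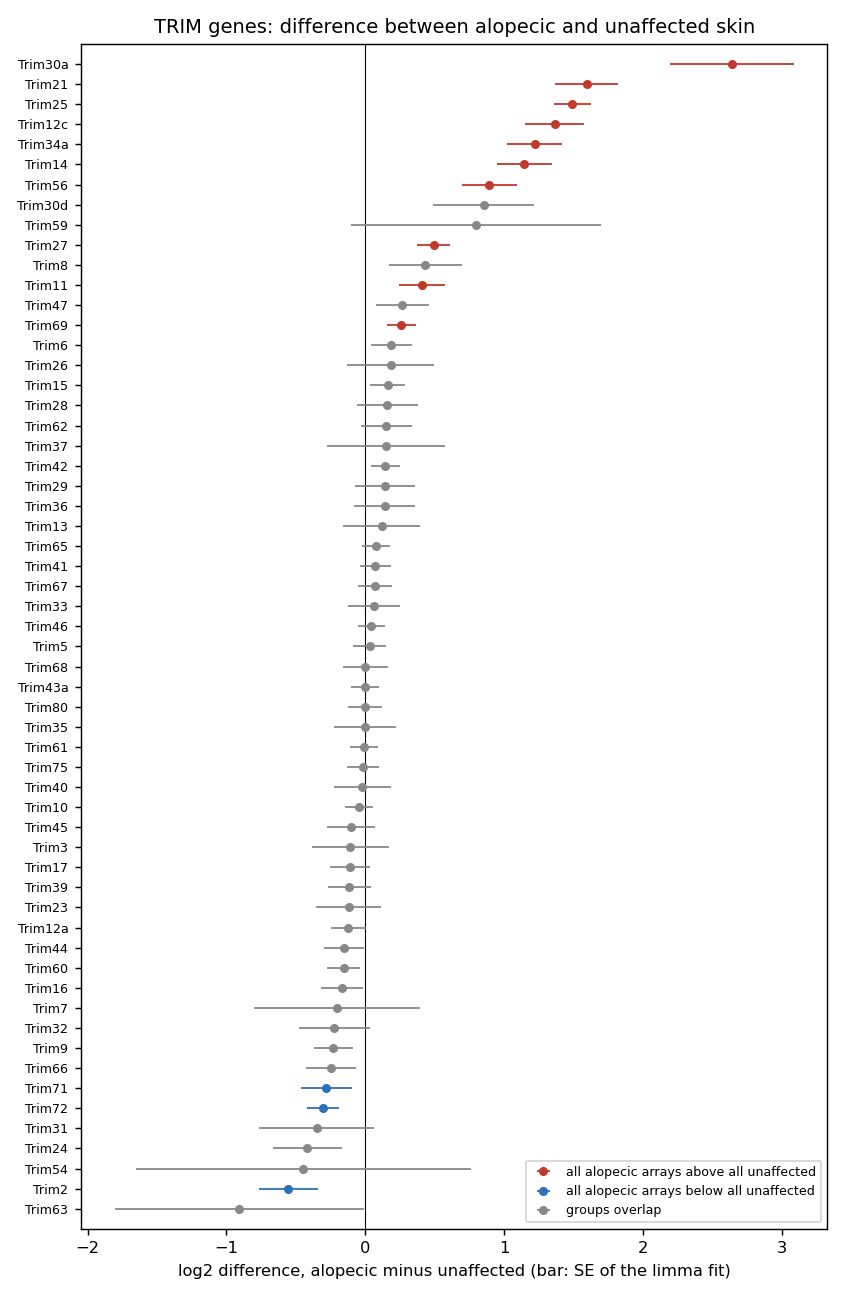
Log2 difference, alopecic minus unaffected skin, of each of the 58 TRIM genes (point), with the standard error of the limma fit (bar, 3 mice per group); colour marks whether the arrays of the groups overlap. The 7 highest genes lie between 0.89 and 2.64 with groups apart, 37 genes lie within 0.25 of 0, and Trim63, Trim54 and Trim59 have the widest bars.

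Trim25, the ligase of RIG-I, was the member that rose. Its log2 values were 11.21, 11.43 and 11.50 in alopecic skin and 10.02, 9.89 and 9.75 in unaffected skin. The groups stood well apart and each was tight, with means of 11.38 ± 0.15 and 9.89 ± 0.13 (SD, 3 mice per group, n = 3). The difference was 1.49 (SE 0.13), or 2.81-fold (limma adjusted p = 0.0229). With any of the 6 arrays left out the difference stayed between 1.42 and 1.57, but the call was lost each time, with limma adjusted p from 0.0538 to 0.165.

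Trim21, the cytosolic antibody receptor, had log2 values of 9.82, 9.53 and 8.998 in alopecic skin and 8.01, 7.76 and 7.79 in unaffected skin. The lowest alopecic array was still above the highest unaffected array. The difference was 1.59 (SE 0.23), or 3.02-fold, and missed the threshold (limma adjusted p = 0.0959).

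In the chromosome 7 cluster the members differed from each other. Trim30a, a regulator of NF-kappaB signalling downstream of Toll-like receptors, had the widest difference of all TRIM genes, 2.64 (SE 0.44) or 6.23-fold, which missed the threshold (limma adjusted p = 0.149). Its values were 9.40, 8.69 and 8.65 in alopecic skin and 6.81, 6.66 and 5.35 in unaffected skin. The lowest of these, unaffected replicate 3, widens both the difference and its error; without that array the difference was 2.18 (SE 0.26, limma adjusted p = 0.0957). Trim12c, a relative of the retroviral restriction factor TRIM5, stood at 10.40, 9.95 and 9.73 against 8.89, 8.52 and 8.57. All 3 alopecic arrays were higher, by 1.36 (SE 0.21) or 2.58-fold (limma adjusted p = 0.122). Trim34a was dim, at 5.81, 6.18 and 5.87 against 4.55, 4.56 and 5.08. It too was higher on every alopecic array, by 1.22 (SE 0.20) or 2.33-fold (limma adjusted p = 0.134).

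The other genes of the cluster did not show such a separation. Trim30d had 6.07, 4.71 and 5.68 in alopecic skin and 4.76, 4.39 and 4.75 in unaffected skin. Alopecic replicate 2 fell among the unaffected arrays, and the difference was 0.85 (SE 0.36, limma adjusted p = 0.735). Trim6, at 0.19 (SE 0.15), Trim5, at 0.03 (SE 0.12), and Trim12a, at -0.12 (SE 0.13), had overlapping groups and signals between 3.95 and 5.32 on every array. So Trim5 and Trim12a, whose start windows hold the same motif as that of Trim12c, were dim and close to 0 in difference. The 7 genes had a median difference of 0.85, with 0 past the threshold. At an unadjusted limma p under 0.05, 3 of the 7 were higher, against 4.8% of all genes. As some of these genes are close copies, a probe set of 1 may also take RNA of a neighbour, and the split between them is uncertain.

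Outside the cluster, 5 further members had groups that did not overlap in the same direction. Trim14, a RING-less member that acts at the mitochondrial adaptor of RIG-I, had 7.19, 6.74 and 6.79 in alopecic skin and 6.01, 5.82 and 5.46 in unaffected skin. The gap was 1.15 (SE 0.20), or 2.21-fold (limma adjusted p = 0.170). Trim56, a ligase that promotes DNA-sensing and Toll-like receptor 3 signalling, had 8.86, 8.92 and 8.65 against 7.91, 7.58 and 8.26. It was higher by 0.89 (SE 0.20), or 1.86-fold (limma adjusted p = 0.329). Trim27, a SUMO and ubiquitin ligase of the nucleus and endosomes, had 10.99, 11.28 and 11.26 against 10.69, 10.71 and 10.65. Its unaffected arrays spanned very little, and the difference of 0.49 (SE 0.12) was 1.41-fold (limma adjusted p = 0.403). Trim11 differed by 0.41 (SE 0.16, limma adjusted p = 0.694), and Trim69, with all values between 3.97 and 4.35, by 0.26 (SE 0.10, limma adjusted p = 0.699). The groups of both were close together.

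**Figure D2:**
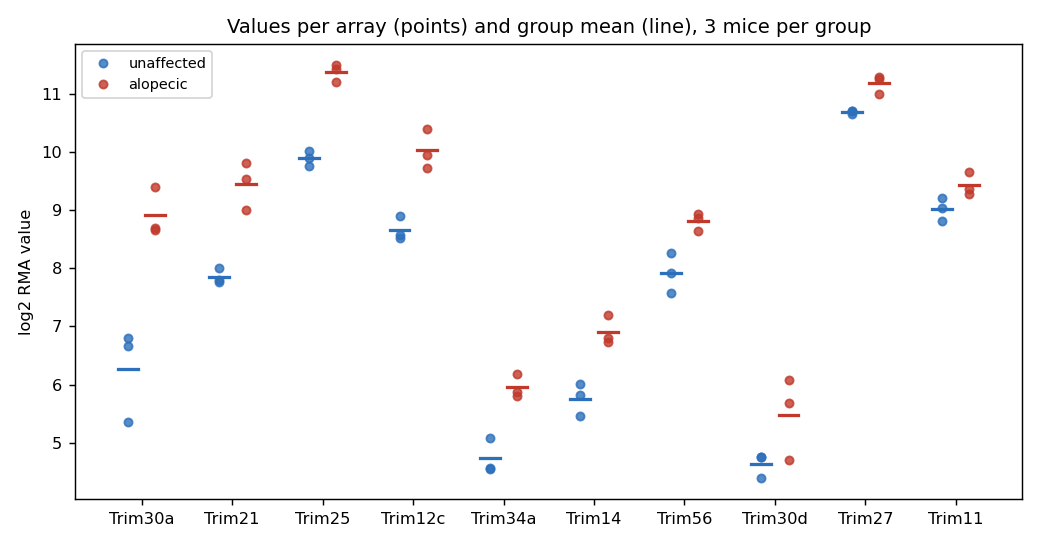
Log2 RMA value on each array (points) and group mean (line) of 10 TRIM genes in unaffected (blue) and alopecic (red) skin, 3 mice each. In 9 of the genes all alopecic points lie above all unaffected points; in Trim30d 1 alopecic point, at 4.71, lies among the unaffected ones.

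Most markers of T and NK cells were also higher in alopecic skin. Of 14 measured markers 13 were higher on every alopecic array than on every unaffected array, against 6.93% of all genes. Of these markers 0 passed the threshold and 11 were higher at an unadjusted limma p under 0.05, against 4.8% of all genes. The log2 of their summed signal ran from 11.74 to 13.41 in alopecic and from 10.05 to 10.30 in unaffected skin. The cytotoxic co-receptor gene Cd8a differed by 1.76 (SE 0.36), while Cd4 differed by -0.16 (SE 0.12). Alopecic replicate 1 had the highest summed T and NK signal. By the brightest probe sets it also had the highest value of Trim30a, Trim21, Trim12c, Trim14, Trim30d and Trim11. By the same probe sets it had the lowest alopecic value of Trim25, Trim27 and Trim34a. On the second probe set of Trim34a alopecic replicate 1 was the highest array, at 5.58. Trim56, Trim27 and Trim69 were highest in alopecic replicate 2. The T and NK sum was higher in alopecic replicate 3 (12.59) than in alopecic replicate 2 (11.74). By the brightest probe sets Trim25, Trim14, Trim30d and Trim11 had that order. Trim30a, Trim21, Trim12c, Trim34a, Trim56, Trim27 and Trim69 had the reverse. Of 9 macrophage and monocyte markers 8 overlapped between the groups and 1, Fcgr1, had its alopecic arrays above by a small margin (0.11, SE 0.10); their summed signals ran from 11.66 to 13.28 and from 11.71 to 12.96. Of 7 dendritic and Langerhans cell markers 2 had all alopecic arrays above, Itgax (1.66, SE 0.52) and Ccr7 (0.61, SE 0.26), and 1, Siglech, had them below (-0.34, SE 0.15), with overlapping sums from 9.52 to 10.71 and from 9.65 to 9.96. Of 6 B and plasma cell markers 1, the immunoglobulin joining chain gene Jchain, had its arrays apart, at 10.35, 9.76 and 8.03 against 4.79, 7.51 and 4.90 (3.65, SE 0.94). The B and plasma cell sums ran from 9.30 to 10.87 in alopecic and from 8.86 to 9.20 in unaffected skin, and none of these dendritic, macrophage, B or plasma cell markers passed the threshold (2 had an unadjusted limma p under 0.05, Itgax and Jchain). The part of infiltrating cells in the TRIM differences was not tested, and in whole skin more cells of a type and more RNA per cell cannot be told apart.

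More than 1 probe set was available for 31 of the 58 genes, which gives a second reading of the same arrays. All 3 probe sets of Trim25 had every alopecic array above every unaffected array, with differences of 1.49, 1.44 and 0.97; over all probe sets the first and the second passed (limma adjusted p = 0.0275 and 0.049). Both probe sets of Trim30a (2.64 and 1.91), Trim21 (1.59 and 1.26), Trim12c (1.36 and 0.61) and Trim34a (1.22 and 0.70) separated the groups as well. The second of Trim12c did so barely, at 6.03, 4.93 and 4.84 against an unaffected maximum of 4.81 (SE of the difference 0.33). Trim14 did not repeat: its dimmer probe set, near 4.1 on average, differed by 0.14 (SE 0.13) with overlapping groups. The second probe set of Trim30d differed by 0.02 (SE 0.11). In Trim27, 3 probe sets separated the groups (0.49, 0.45 and 0.43), and the 3 dimmer ones lay between -0.01 and 0.05. Of the 53 further probe sets of all members, 40 had the sign of the brightest.

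**Figure D3:**
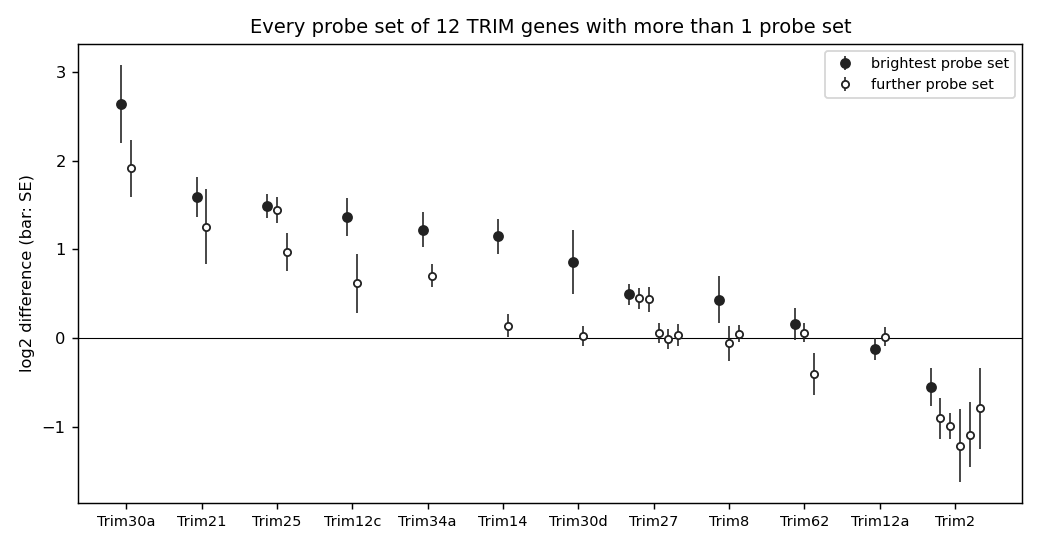
Log2 difference, alopecic minus unaffected skin, of every probe set of 12 TRIM genes that have several, with the standard error (bar); filled points are the brightest probe set of a gene and open points the others. The Trim25, Trim30a, Trim21, Trim12c and Trim34a probe sets are all above 0, while the further probe sets of Trim14 and Trim30d lie near 0 and all 6 of Trim2 lie below 0.

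On the lower side, no TRIM gene passed the threshold by limma, and Trim2 and Trim72 had an unadjusted p under 0.05. Trim2 is an NHL-repeat ligase best known from neurons. Its brightest probe set had 11.04, 11.53 and 11.50 in alopecic skin and 11.59, 12.15 and 11.996 in unaffected skin. All alopecic arrays were lower, although the nearest arrays of the groups almost touched, and the difference was -0.55 (SE 0.21, limma adjusted p = 0.676). All 6 probe sets of Trim2 were lower on average, with differences from -0.55 to -1.22. The groups overlapped in the probe sets at -1.22, -1.09 and -0.79 and were apart in the others. The tightest of the 6 averaged 9.92 ± 0.16 in alopecic skin against 10.92 ± 0.18 (SD, n = 3 per group). This difference of -0.99 (SE 0.15) missed the threshold over all probe sets (limma adjusted p = 0.131). Trim72, a membrane repair protein of striated muscle, lay between 4.26 and 4.80 on every array and differed by -0.30 (SE 0.12, limma adjusted p = 0.679). Trim71, an NHL-repeat protein of stem cells and embryos, was equally dim and differed by -0.28 (SE 0.18, limma adjusted p = 0.851).

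Members were also sorted into structural classes by general knowledge of their domains, not from a file, so the class counts depend on that assignment. Each gene was counted in a single class. Members without a RING or with a COS box formed classes of their own whatever their C terminus. The PRY-SPRY counts therefore leave out Trim14 and Trim16, which were counted as RING-less. The PRY-SPRY class holds 28 of the 58 genes; 8 of them had all alopecic arrays above and 1 had them below, against 6.93% and 6.12% of all genes (median 0.12). The RING-less class had 1 of 4 above and the genes with other C termini 1 of 9, and the classes were not tested against each other. All 5 genes ending in NHL or filamin domains had negative differences, with 0 past the threshold and 1 at an unadjusted p under 0.05 (median -0.22); besides Trim2 and Trim71 these were Trim32 at -0.22 (SE 0.26), Trim3 at -0.11 (SE 0.28) and Trim45 at -0.10 (SE 0.17). The shared sign depends on all arrays: Trim3 was at 0.19 (SE 0.14) without unaffected replicate 3, and Trim45 reached 0.04 with an array left out. The 7 COS-box genes had overlapping groups and a median of 0.04; apart from Trim54 and Trim63, described further on, they were Trim9, Trim36, Trim42, Trim46 and Trim67, with differences from -0.23 to 0.14. The 4 chromatin-linked genes with a PHD finger and bromodomain had overlapping groups. Among them Trim28, the co-repressor of KRAB zinc finger proteins, differed by 0.16 (SE 0.22), Trim33, a regulator of TGF-beta signalling, by 0.07 (SE 0.19), Trim24, a co-regulator of nuclear receptors, by -0.42 (SE 0.25), and the dim Trim66 by -0.25 (SE 0.18). In the RING-less group Trim29, a keratin-associated protein of stratified epithelium, had 12.80, 12.32 and 12.65 in alopecic and 12.58, 12.69 and 12.08 in unaffected skin. Its groups overlapped and differed by 0.14 (SE 0.22, limma adjusted p = 0.918). Trim44 differed by -0.15 (SE 0.15) and Trim16, which acts in autophagy of damaged endosomes, by -0.17 (SE 0.15). Of the 9 genes with other C termini only Trim56 had groups apart; Trim37, a peroxisome and centrosome ligase, differed by 0.15 (SE 0.43) and Trim13, of the endoplasmic reticulum, by 0.12 (SE 0.28). Trim8, which acts in cytokine signalling, differed by 0.43 (SE 0.26) with overlapping groups, Trim23 by -0.12 (SE 0.23) and Trim61 by -0.01 (SE 0.10). In the PRY-SPRY class the members not named elsewhere, Trim17, Trim35, Trim43a, Trim60, Trim62, Trim68 and Trim75, lay between -0.16 and 0.15 with overlapping groups. The groups also overlapped in Trim47 at 0.27 (SE 0.19), Trim65 at 0.08 (SE 0.10) and Trim41 at 0.07 (SE 0.11). Trim80, which was given no class, lay at 0 within its error (SE 0.12).

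A second genomic group, chosen after its values were seen, lies near the MHC class I genes on chromosome 17 and showed no such separation. Trim26 differed by 0.18 (SE 0.31), Trim15 by 0.16 (SE 0.13), Trim10 by -0.05 (SE 0.10), Trim40 by -0.02 (SE 0.20), Trim39 by -0.11 (SE 0.16) and Trim31 by -0.35 (SE 0.41). The groups overlapped in all 6, and the sign of Trim26, Trim31, Trim39 and Trim40 was not the same with every array left out. In Trim26, 8.96, 8.98 and 8.80 in alopecic skin stood against 8.46, 8.29 and 9.44 in unaffected skin, where unaffected replicate 3 alone was above the alopecic arrays. Without that array its difference was 0.54 (SE 0.12, limma adjusted p = 0.301).

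Unaffected replicate 3 stood apart from the other 5 arrays: it held the most extreme values of several tissue-linked TRIM genes. Trim54 and Trim63, also known as MURF3 and MURF1, are ligases of the striated muscle sarcomere; Trim63 marks muscle atrophy. Trim54 had 9.47, 8.41 and 8.24 in alopecic skin and 8.81, 6.92 and 11.72 in unaffected skin. Trim63 had 9.73, 9.28 and 7.80 against 9.22, 8.69 and 11.62. In both genes unaffected replicate 3 was the highest array, and the groups overlapped (differences of -0.45, SE 1.21, and -0.91, SE 0.90). The median of 16 skeletal muscle markers was 13.76, 13.16 and 12.38 in alopecic and 13.43, 11.10 and 14.50 in unaffected skin, the same order of arrays as Trim54. Without unaffected replicate 3 the differences of Trim54 and Trim63 were 0.84 (SE 0.67) and -0.02 (SE 0.60), so the sign of the former turned and the latter came close to 0. Trim7, a binding partner of the glycogen primer glycogenin that was chosen after its values were seen, was likewise highest in that array, at 9.79 against 7.60 to 8.46 in the other 5, and its difference of -0.21 (SE 0.60) became 0.47 (SE 0.24) without it.

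Trim59, a membrane-anchored ligase, showed the reverse. It had 10.11, 10.94 and 11.07 in alopecic skin and 10.80, 11.08 and 7.84 in unaffected skin. Unaffected replicate 3 was the lowest by more than 2 log2 units, which gave a difference of 0.80 (SE 0.90, limma adjusted p = 0.893) that became -0.23 (SE 0.32) without it. A second, dimmer probe set of Trim59 differed by -0.33 (SE 0.35) with all arrays. There unaffected replicate 3 was the lowest by less, at 5.95 against 6.16 in alopecic replicate 3. In unaffected replicate 3 the median of 13 hair shaft and root sheath markers was 5.12, against 11.08 to 13.76 in the others. The median of 6 proliferation markers was 5.88 there, against 8.44 to 10.20. The part of hair cycle stage or tissue sampling in these genes was not tested. Without unaffected replicate 3, 16 TRIM genes had all alopecic arrays above and 8 had them below, against 13.3% and 14% of all genes. The 10 that were above with all arrays were among the 16, and Trim8, Trim26, Trim47, Trim41, Trim65 and Trim3 were added.

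**Figure D4:**
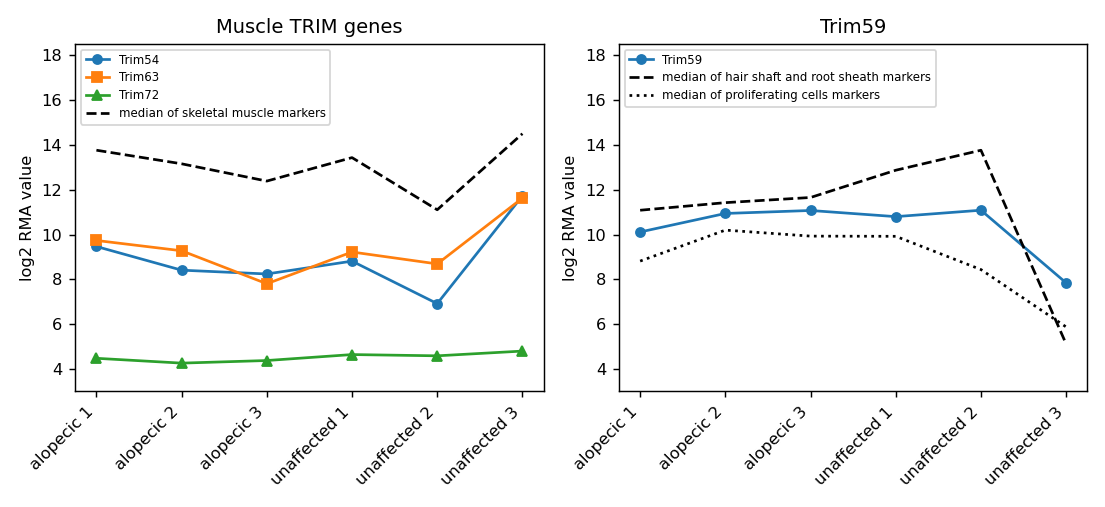
Log2 RMA values per array (6 mice) of the muscle ligases Trim54, Trim63 and Trim72 beside the median of 16 skeletal muscle markers (left), and of Trim59 beside the medians of 13 hair shaft and root sheath markers and 6 proliferation markers (right). In unaffected replicate 3 Trim54 and Trim63 are at their highest, 11.72 and 11.62, and Trim59 at its lowest, 7.84.

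Genes that work with TRIM proteins were compared next. RIG-I itself, encoded by Ddx58, rose 2.98-fold (log2 difference 1.58, SE 0.17, limma adjusted p = 0.0377), as did its relative Dhx58, 6.51-fold, and the transcription factor Irf7, 5.08-fold. These were 3 of 15 measured genes of RNA and DNA sensing, with 8 whose arrays separated upward and a median of 0.59. Over all genes 0.264% rose and 6.93% had arrays that separated upward. The mitochondrial adaptor gene Mavs differed by -0.02 (SE 0.20). Of 14 ubiquitin and E2 genes 1 rose, Uba7, the activating enzyme of the ubiquitin-like ISG15, by 3.89-fold (limma adjusted p = 0.0133). Ube2l6, the conjugating enzyme for ISG15, differed by 2.23 (SE 0.26) and just missed (limma adjusted p = 0.0531). Among general partners of RING ligases, Ube2d2a and Ube2n differed by 0.46 (SE 0.16) and 0.44 (SE 0.28). Ube2d1 and Ube2d3 differed by -0.22 (SE 0.50) and -0.14 (SE 0.25). The list had 8 differences above 0 and 6 below, with a median of 0.05. Among 15 interferon-linked ligases outside the family 2 rose, Dtx3l by 5.02-fold and the giant ligase gene Rnf213 by 3.904-fold (median 0.55). Of 6 measured interferon transcription factors Irf1 rose 7.61-fold (limma adjusted p = 0.00607), and all 6 had their arrays apart (median 2.01). Irf1 passed with each array left out except unaffected replicate 2 (limma adjusted p = 0.0679), and Ddx58 and Rnf213 in none of these 6 fits. Dhx58 and Irf7 passed without alopecic replicate 1 alone, and Dtx3l and Uba7 without unaffected replicate 3 alone. With the mean over the probe sets of a gene 4 of these calls were lost: Rnf213 differed by 0.88, Dhx58 by 1.02, Ddx58 by 1.08 and Uba7 by 1.56 (limma adjusted p = 0.339, 0.146, 0.127 and 0.0552). Irf7 and Ddx58 missed the threshold after quantile normalization (limma adjusted p = 0.0536 and 0.0553), and Ddx58 also missed it with the most variable probe set (limma adjusted p = 0.0718).

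TRIM proteins that carry another name gave a mixed picture. Of 11 measured, 0 passed the threshold, 2 were higher at an unadjusted limma p under 0.05, and the median was -0.12. Pml, which is TRIM19 and builds the nuclear bodies named after it, had 8.37, 8.43 and 7.99 in alopecic skin and 7.32, 7.09 and 6.80 in unaffected skin. Its groups were apart by 1.19 (SE 0.19), or 2.28-fold (limma adjusted p = 0.132). Rnf135, a ligase that assists RIG-I, differed by 0.74 (SE 0.24, limma adjusted p = 0.578). The muscle proteins Cmya5 and Fsd2 differed by -0.48 (SE 1.14) and -0.50 (SE 0.70), and Cmya5 was highest in unaffected replicate 3, at 13.63. The nuclear body list had 0 of 7 past the threshold, 4 at an unadjusted limma p under 0.05 and a median of 0.40; its brightest members, Sumo3 and Atrx, differed by 0.25 (SE 0.16) and 0.18 (SE 0.12). Genes of autophagy, which some TRIM proteins guide, had a median of -0.29, with 0 of 10 past the threshold and 1 lower at an unadjusted limma p under 0.05. Map1lc3a and Map1lc3b differed by -0.01 (SE 0.17) and -0.24 (SE 0.18). Over all genes 4.8% were higher and 2.35% lower at an unadjusted limma p under 0.05. These lists share mice with the TRIM comparison and are given side by side only.

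**Figure D5:**
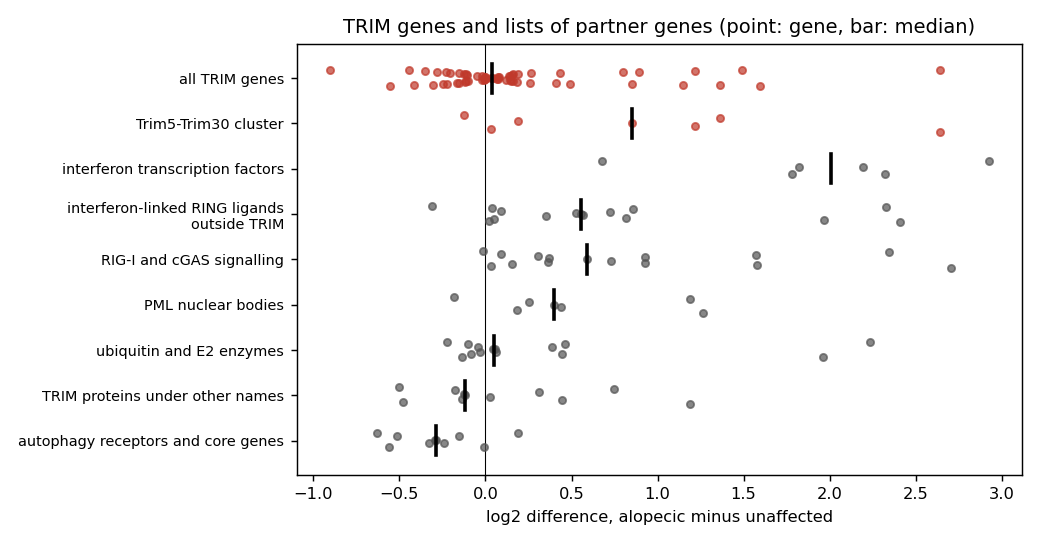
Log2 difference, alopecic minus unaffected skin, of each measured gene (point) and the median (bar) for all 58 TRIM genes, the 7 genes of the chromosome 7 cluster and the lists of partner genes. The medians are 0.04 for the family, 0.85 for the cluster and 2.01 for the interferon transcription factors, and the autophagy list is centred on -0.29.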

How the data were processed

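Deposited values are on the log2 scale, summarised by the authors with RMA per the submitters' processing notes; no version is stated there. Per the labels' protocols RNA came from a Qiagen miRNeasy extraction and was labelled with a 3' IVT Express kit. The table held 45101 probe sets; 34945 had a single symbol, updated through RefSeq gene identifiers (GRCm38.p6) for 34741. The brightest probe set per gene was fitted with limma 3.58.1 in R 4.3.3 (lmFit, eBayes, two-sided), with Benjamini-Hochberg adjustment over 18193 genes at 0.05 and no filter. The fit was tested on simulated data. Arrays have no read depth; their number limits the precision. Protein-coding Trim genes without a probe set of their own (10) are not analysed here. Named genes are the TRIM genes past the threshold, up to 12 higher and 10 lower with groups apart, the 3 brightest per class, the cluster and muscle genes, and up to 4 called (otherwise the 2 brightest) per partner list. Members and lists were chosen with earlier results of these data known. Alternatives were single arrays left out, other probe set rules, a dim filter, quantile normalization, a replicate block and other eBayes settings. A second promoter motif that was searched is not reported here.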

Additional observations from a re-analysis of the deposited data

Results flagged for a closer look

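Probe sets that the annotation assigns to more than 1 symbol were left out of the gene comparison. Of those with a Trim symbol, 3 had every alopecic array above every unaffected array, against 6.93% of all genes in that comparison. The others were shared by H2aw and Trim17 and by Gm38525 and Trim30b, and differed by -0.04 and -0.09. In the latter every alopecic array lay below every unaffected array, against 6.12% of all genes. A probe set shared by Trim30d and Trim30a averaged 5.47 ± 0.52 in alopecic skin against 4.54 ± 0.27 (SD, n = 3 per group), so it differed by 0.92. A pair of probe sets shared by Trim34b and Trim34a differed by 0.73 and 0.34, with alopecic means of 6.62 ± 0.49 and 4.11 ± 0.35 over unaffected means of 5.88 ± 0.09 and 3.76 ± 0.10 (SD, n = 3 per group). These values were not tested.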

How the results depend on the processing

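The count of TRIM genes that rose, 1 in the main analysis, was 2 with the mean over the probe sets of a gene, where Trim34a joined Trim25 (limma adjusted p = 0.0452). It was 0 with each array left out, where 8 to 11 TRIM genes were higher at an unadjusted limma p under 0.05. In the same fits 763 to 1836 of all 18193 genes had such a p in either direction, against 1301 in the main analysis. For Trim25 the limma adjusted p ran from 0.0229 to 0.047 under the other probe set rules, the dim filter, quantile normalization and both eBayes settings. With the replicate number as a block, 0 TRIM genes and 0 of all genes passed (limma adjusted p = 0.325 for Trim25). At an unadjusted limma p under 0.05, 9 TRIM genes were higher and 1 lower in that fit, against 873 of all 18193 genes in either direction. The series design states separate mice and names no pairing, so the numbers were not taken as pairs. The deviations of same-numbered arrays from their group means had correlations of -0.132, -0.197 and -0.33. The count over all genes, 50, ran from 4 to 39 with an array left out. The 13 TRIM genes with groups apart became 7 of 27 without genes below the median mean (groups were apart in 12% of all genes that this filter kept), and 16 to 24 with an array left out, where the share over all genes rose too, from 13.1% to between 17.5% and 28.5%. No TRIM gene fell under any of these alternatives. The sign changed for Trim36 (-0.0475) and Trim37 (-0.0741) with the mean of probe sets and for Map1lc3a (0.13) with quantile normalization. With an array left out, the differences of 22 of the 58 TRIM genes took both signs. Among the genes chosen by the naming rule they ran from -1.56 to 0.84 for Trim54, -0.23 to 1.39 for Trim59, -1.57 to 0.63 for Cmya5, -1.18 to 0.22 for Fsd2, -0.28 to 0.19 for Trim3, -0.18 to 0.17 for Trim35, -0.10 to 0.57 for Trim37, -0.0784 to 0.39 for Trim13, -0.047 to 0.27 for Trim29, -0.11 to 0.16 for Trim33, -0.0335 to 0.0915 for Trim5 and -0.13 to 0.0855 for Map1lc3a. Outside the rule the widest were -0.63 to 0.47 for Trim7, -0.63 to 0.08 for Trim31, -0.03 to 0.54 for Trim26, -0.25 to 0.12 for Trim23, -0.13 to 0.19 for Trim40 and -0.24 to 0.04 for Trim45. For changes other than those tied to a left-out array or to fewer genes tested, the cause was not tested.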
